A study of Mus musculus with 27 samples.

Results

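The DNA methylation readers, writers and erasers were followed as 9 genes, Mbd1, Mbd2, Mbd3, Mbd4, Dnmt1, Dnmt3a, Dnmt3b, Uhrf1 and Zbtb33, chosen by name and represented by every probe whose symbol equals one of them. This gave 21 of the 45281 probes of an Illumina MouseWG-6 expression BeadChip. There were 6 probes for Mbd1, 4 for Zbtb33, 3 for Dnmt3a, 2 each for Dnmt3b and Uhrf1, and 1 each for Mbd2, Mbd3, Mbd4 and Dnmt1. The study compared wild-type (WT) mice with mice lacking Mbd2 (labelled Mbd2KO, here Mbd2-/-) on a C57BL/6 background. In the colon of mice given 2% dextran sodium sulphate (DSS), a chemical that injures the gut lining and causes colitis, monocytes (CD11b+ Ly6C+), macrophages (CD11b+ Ly6C- MHC-II+ F4/80+) and type 1 conventional dendritic cells (cDC1s; CD11b- CD11c+ CD103+) were sorted by flow cytometry. Monocytes and macrophages had 5 arrays of each genotype and cDC1s had 2 WT and 3 Mbd2-/- arrays. An array held cells of 1 or more age- and sex-matched mice, and the study's methods speak of several experiments that the labels do not name. Splenic CD4 T cells, labelled as taken 6 weeks after T cell transfer, had 1 array a genotype, and the labels do not say whether donor or recipient carried the deletion. Ages of the mice are not in the labels. The mutant mice lacked Mbd2 in every cell, so the sorted cells had also developed in a tissue without it.

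Methyl groups on CpG dinucleotides are placed by the de novo methyltransferases Dnmt3a and Dnmt3b and copied onto the new strand after replication by Dnmt1, which Uhrf1 brings to hemimethylated sites. Methyl-CpG binding domain (MBD) proteins read the mark: Mbd2 and Mbd1 recruit repressors to methylated DNA, Mbd3 is the close relative of Mbd2 in an alternative form of the NuRD complex and binds methylated DNA poorly, and Mbd4 is a glycosylase that repairs deaminated methylcytosine. Zbtb33 (Kaiso) reads methylated DNA through zinc fingers instead. Whether these related proteins change where Mbd2 is absent was the question put to the arrays.

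Levels are given as log2 of the background-corrected, quantile-normalized intensity, and a probe passed the test when limma's Benjamini-Hochberg adjusted p was under 0.05. Mean intensity per array ranged from 172 to 353 on the 25 colon arrays, and 16024 to 18608 probes were detected. The cDC1 genotypes did not overlap in mean intensity (265 to 292 in WT and 172 to 228 in Mbd2-/-). Markers were read against the gates. Of the cDC1 list, 13 of 15 cDC1 marker probes were higher in cDC1s than in monocytes (median log2 difference 3.15), 10 of 11 macrophage marker probes were higher in macrophages than in monocytes, and 9 of 9 monocyte marker probes were lower in macrophages than in monocytes. Ccr2, a defining monocyte receptor, was detected on 1 of 10 monocyte arrays. All 7 epithelial and 5 of 5 stromal markers were detected on every colon array, and 5 to 7 of 7 T cell markers on every array of each group. The number of arrays limits the precision, and the p-values measure the spread between arrays. In bulk arrays, fewer cells of a type and less RNA per cell cannot be told apart.

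The single Mbd2 probe was not detected on any of the 27 arrays, WT or Mbd2-/-. Its level was 4.18 to 4.63 in WT monocytes and 4.20 to 4.49 in Mbd2-/- monocytes, 4.23 to 4.43 and 4.24 to 4.38 in macrophages, and 4.23 to 4.45 and 4.24 to 4.37 in cDC1s. The genotypes overlapped in every cell type, and the lowest detection p on any array was 0.0566. The probe thus gives no check of the genotype labels, because it had no signal above the negative control beads in the WT cells either.

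Dnmt3a was also close to the limit of detection. Its brightest probe was detected on 4 of 25 colon arrays, at 5.39 and 4.73 on 2 of the 5 WT monocyte arrays and at 4.89 and 4.67 on 2 of the 5 Mbd2-/- macrophage arrays, and the other arrays lay between 4.17 and 4.48. Its other probes were not detected on any array. Neither gene entered a genotype comparison, so the genotype tests covered the remaining 7 genes, with 2 probes of Mbd1 and 1 of each other gene.

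**Figure D1:**
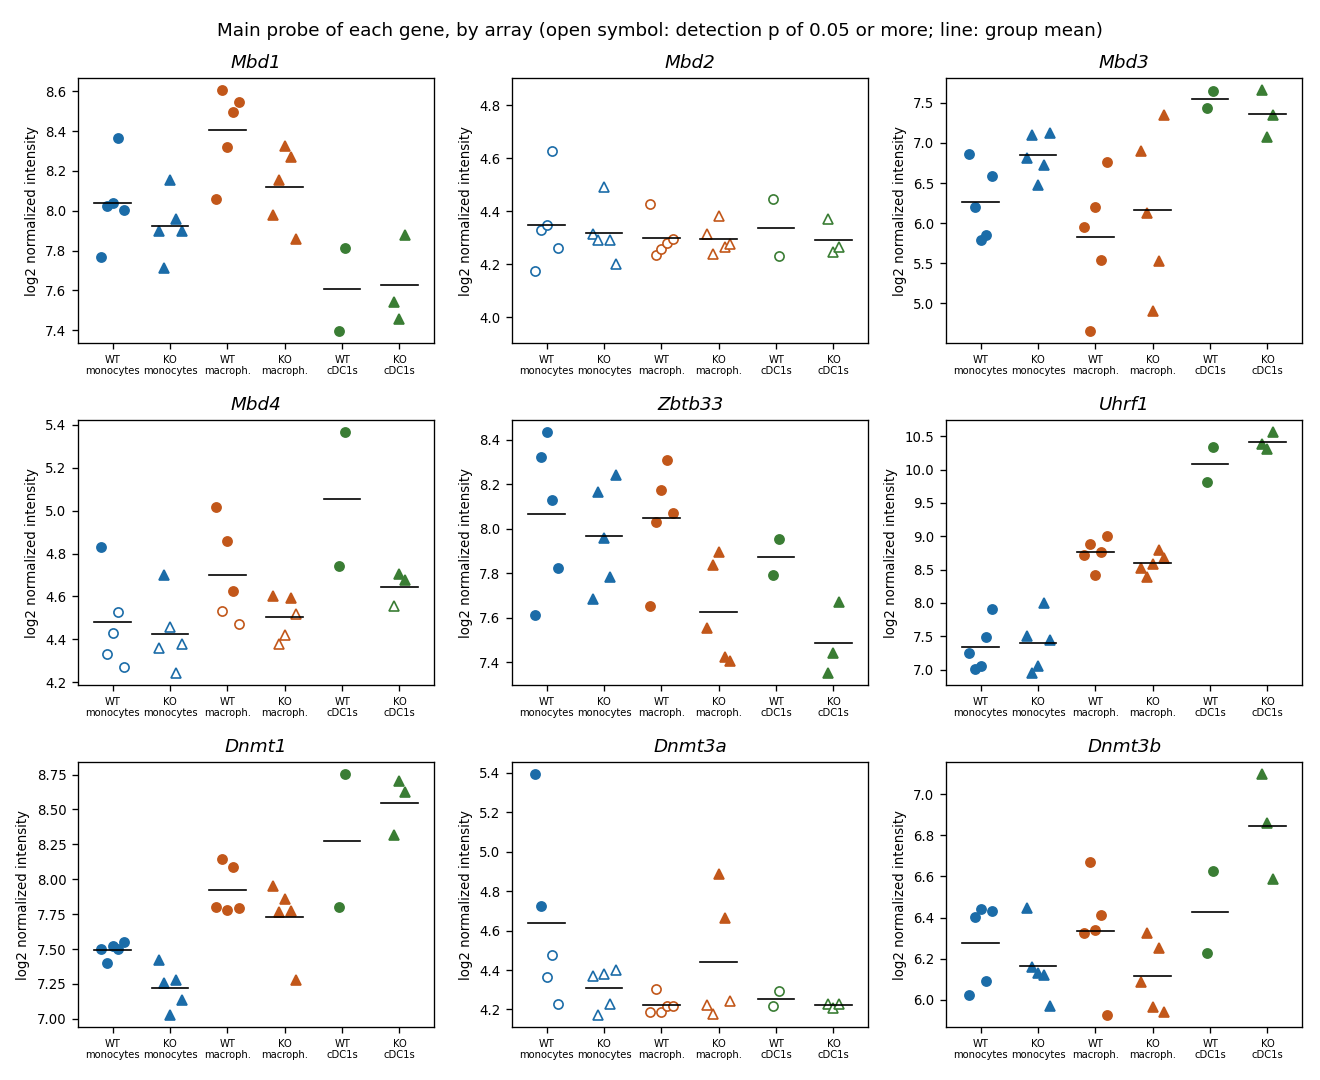
Log2 normalized intensity of the main probe of each gene on the 25 colon arrays, by genotype (KO, Mbd2-/-) and cell type. Each point is an array, bars are group means and open points are arrays where the probe was not detected. Uhrf1 rises in steps from monocytes (6.95 to 8.01) through macrophages (8.39 to 9.01) to cDC1s (9.81 to 10.56), with the genotypes side by side at each step, and Mbd2 lies at the floor in every group.

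No member passed the test between genotypes in any of the 3 cell types. In monocytes 0 of 7 member probes passed, with 1.80% of all 16190 probes tested passing and 0.426% passing with at least a 2-fold change. In macrophages 0 of 8 passed, with 5.60% of 16834 (1.51% with at least a 2-fold change), and in cDC1s 0 of 8 passed, with 6.68% of 17838 (1.93%). At an unadjusted p under 0.05, limma gave none of the members in monocytes (0), 2 of 8 probes in macrophages and 2 of 8 in cDC1s, beside 13.8%, 23.6% and 24.2% of all probes tested, so these counts lie near or below the background. The median log2 fold change over the member probes was -0.11, -0.20 and -0.01 in monocytes, macrophages and cDC1s, beside -0.02, -0.07 and 0.03 over all probes tested.

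Of the readers, Mbd3 is the member closest to Mbd2 in sequence and function. In monocytes its level was 5.79, 5.86, 6.20, 6.58 and 6.86 in WT and 6.48, 6.72, 6.82, 7.09 and 7.13 in the mutant. Most Mbd2-/- arrays lay above most WT arrays, but the groups overlapped, and the log2 fold change of 0.59 (SE 0.375, 95% interval -0.19 to 1.37) did not pass (limma adjusted p = 0.524). In macrophages the arrays of each genotype spread over more than 2 log2 units, at 4.66, 5.54, 5.96, 6.20 and 6.76 in WT and 4.90, 5.53, 6.13, 6.90 and 7.35 in Mbd2-/-. That spread was wider than the difference of 0.34 (95% interval -0.44 to 1.11, adjusted p = 0.617). In cDC1s Mbd3 was at 7.44 and 7.65 in WT and 7.08, 7.34 and 7.65 in Mbd2-/-, and the difference was -0.18 with an interval of -1.31 to 0.94. The intervals leave room for a 2-fold change of Mbd3 in all 3 cell types.

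Mbd1, the MBD reader with extra zinc fingers, was one of the 2 member probes with an unadjusted p under 0.05 in macrophages. WT macrophages were at 8.06, 8.32, 8.49, 8.55 and 8.60 and Mbd2-/- macrophages at 7.86, 7.98, 8.16, 8.27 and 8.32. The groups overlapped, and the log2 fold change of -0.29 (SE 0.134, 95% interval -0.56 to -0.01) did not pass after adjustment (limma adjusted p = 0.194). The second Mbd1 probe differed by -0.11 in the same cells (adjusted p = 0.780). In monocytes and cDC1s the main probe of Mbd1 differed by -0.12 and 0.02 between genotypes.

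Zbtb33, the other such probe, had the lowest genotype p of any member. In macrophages it was at 7.65, 8.03, 8.07, 8.18 and 8.31 in WT and 7.41, 7.42, 7.56, 7.84 and 7.90 in Mbd2-/-. The Mbd2-/- values lay lower, with overlap at the lowest WT array, and the log2 fold change was -0.42 (SE 0.158, 95% interval -0.75 to -0.10, limma adjusted p = 0.107). This ranked 2112 among the 16834 probes tested in that comparison. In cDC1s Zbtb33 was at 7.79 and 7.95 in WT and 7.35, 7.44 and 7.67 in Mbd2-/-. The genotypes did not overlap there, with a log2 fold change of -0.39 (95% interval -0.86 to 0.09) and an adjusted p of 0.310. With so few arrays, this and the later separations of the cDC1 genotypes can arise by chance. The share of all probes that separated in this way was not counted. In monocytes the difference was -0.10.

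Mbd4 was near the detection limit, being detected on 11 of 25 colon arrays. In cDC1s it was at 4.74 and 5.36 in WT, both detected, and at 4.55, 4.68 and 4.70 in Mbd2-/-, of which 2 were detected. The genotypes did not overlap, and the log2 fold change of -0.41 (SE 0.187) did not pass after adjustment (limma adjusted p = 0.184). In macrophages the difference was -0.20, and in monocytes Mbd4 was detected on 1 array of each genotype and was not tested.

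Uhrf1, which reads hemimethylated DNA and belongs with Dnmt1 in maintenance methylation, did not differ between genotypes beyond the spread of the arrays. The log2 fold change was 0.05 (95% interval -0.33 to 0.43) in monocytes, -0.16 (adjusted p = 0.618) in macrophages and 0.34 (adjusted p = 0.455) in cDC1s.

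Among the writers, Dnmt1 was tighter within groups in monocytes than elsewhere. WT monocytes were at 7.40, 7.50, 7.50, 7.52 and 7.55 and Mbd2-/- monocytes at 7.03, 7.13, 7.25, 7.28 and 7.42. A single Mbd2-/- array overlapped the WT range, and the log2 fold change of -0.27 (SE 0.148, 95% interval -0.58 to 0.03) did not pass (limma adjusted p = 0.439). In macrophages Dnmt1 was at 7.78, 7.79, 7.80, 8.09 and 8.14 in WT and at 7.28, 7.77, 7.77, 7.86 and 7.95 in the mutant, with a difference of -0.20 (adjusted p = 0.440). In cDC1s the 2 WT arrays stood far apart, at 7.80 and 8.75, with the Mbd2-/- arrays at 8.32, 8.62 and 8.70 between them. The log2 fold change in cDC1s was 0.27 (95% interval -0.17 to 0.71, adjusted p = 0.460). It was 0.75 (adjusted p = 0.0259) without WT cDC1 replicate 26, where the lone remaining WT array is assumed to vary like the other groups, and -0.20 without WT cDC1 replicate 23, so the sign rests on which WT array is kept.

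Dnmt3b, the other writer that could be tested, was at 6.23 and 6.62 in WT cDC1s and at 6.59, 6.86 and 7.10 in Mbd2-/- cDC1s. The groups overlapped by a narrow margin, and the log2 fold change of 0.42 (SE 0.200, 95% interval 0.01 to 0.84) did not pass after adjustment (limma adjusted p = 0.198). With each array scaled by its median instead of quantile normalization, the Dnmt3b value was -0.20 and that of Dnmt1 in cDC1s was -0.36, in a comparison where the median of all probes was then -0.37. In monocytes and macrophages Dnmt3b differed by -0.11 and -0.22 between genotypes.

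**Figure D2:**
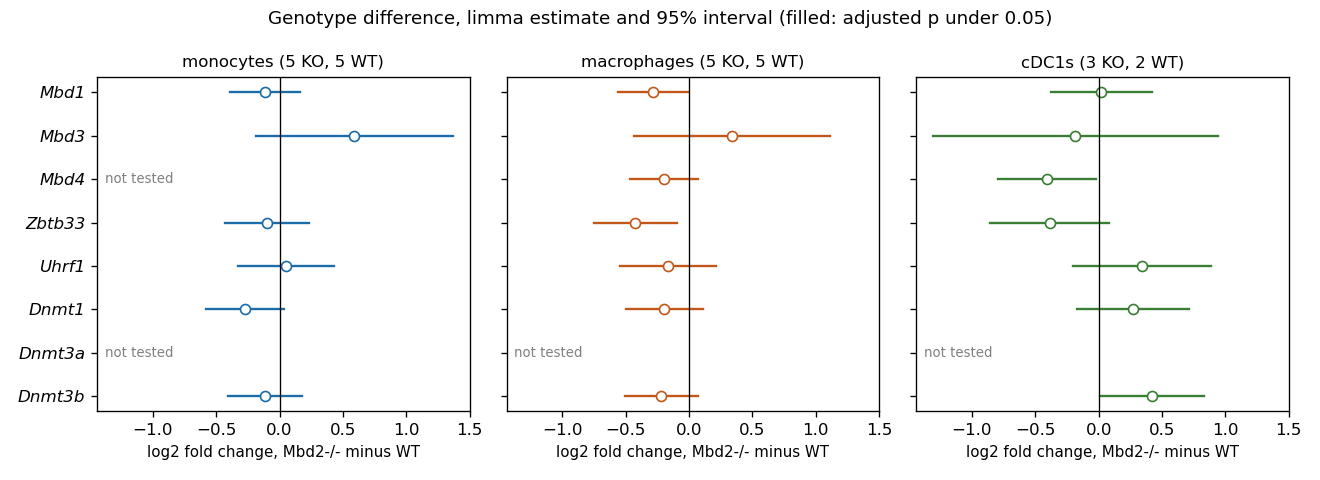
Log2 fold change of Mbd2-/- against WT for the main probe of each tested gene, with its 95% interval from limma, in monocytes, macrophages and cDC1s; open points did not pass the test. All points are open, and the intervals are widest for Mbd3 and in cDC1s, which had 2 WT and 3 Mbd2-/- arrays.

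Whether the genotype effect itself differed between cell types was tested as an interaction. None of 10 member probes passed for macrophages against monocytes (0.0266% of all probes passed), none of 11 for cDC1s against monocytes (0.883%) and none of 11 for cDC1s against macrophages (6.55%). At an unadjusted p under 0.05, limma gave 0, 2 and 1 member probes, beside 7.0%, 16.4% and 23.2% of all probes. These were Dnmt1 (0.54, adjusted p = 0.293) and Dnmt3b (0.54, adjusted p = 0.272) for cDC1s against monocytes, and Dnmt3b (0.64, adjusted p = 0.107) for cDC1s against macrophages. Without WT cDC1 replicate 26 the Dnmt1 interaction passed against monocytes (1.02, adjusted p = 0.0136) and against macrophages (0.94, adjusted p = 0.0142). Without WT macrophage replicate 15 the Dnmt3b interaction passed against macrophages (0.74, adjusted p = 0.0412).

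Positions of the columns in the deposited table fall in runs of 6, and within a run that held both genotypes the differences could be read again. In macrophages Zbtb33 differed by -0.54 and -0.43 in the 2 such runs and Mbd1 by -0.26 and -0.37. In monocytes Dnmt1 differed by -0.27 and -0.29, whereas Uhrf1 differed by 0.62 in one run and -0.52 in the other. The labels do not say that a run is a chip, and the cDC1 genotypes shared no run. Monocytes and macrophages did not share a run either, so column position and these cell types cannot be told apart.

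Other proteins of the methylation machinery were examined as lists of genes around the members. Of 5 further genes of these families (Mbd5, Mbd6, Zbtb4, Zbtb38, Uhrf2), not all had a tested probe in each genotype comparison. Among the probes tested, 0 of 6 passed between genotypes in monocytes and 0 of 6 in macrophages, and 1 of 5 fell in cDC1s. This was the dimmer probe of Uhrf2, a relative of Uhrf1, at 5.99 ± 1.19 (SD, n = 2) in WT cDC1s and not detected on any of the 3 Mbd2-/- arrays (4.35 ± 0.14), at least 2.51-fold lower (limma adjusted p = 0.0210). Here the bound sets the WT mean against the lowest signal of detected probes on the Mbd2-/- arrays. The brightest Uhrf2 probe differed by -0.08 in the same cells (adjusted p = 0.839), so the probes of this gene disagreed. The call for Uhrf2 was lost without WT cDC1 replicate 23 (-0.80, adjusted p = 0.401), without Mbd2-/- cDC1 replicate 30 (adjusted p = 0.0650), with cyclic loess (adjusted p = 0.0504), with array weights (adjusted p = 0.0838) and with cDC1s fitted alone (adjusted p = 0.354).

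The enzymes that start active demethylation are the Tet dioxygenases, which oxidize methylcytosine, and the glycosylase Tdg, which removes the oxidized base. Of these, 0 of 3 probes passed between genotypes in monocytes, 0 of 3 in macrophages and 1 of 2 in cDC1s. Only 2 of the 4 listed genes (Tet1, Tet2, Tet3 and Tdg) had a tested probe in each of these comparisons. The probe that fell was for Tet2, listed on the array under its older name E130014J05Rik. Tet2 was at 8.15 and 8.57 in WT cDC1s and at 6.84, 7.39 and 7.80 in Mbd2-/- cDC1s. Every Mbd2-/- array lay below both WT arrays, with a log2 fold change of -1.02 (SE 0.266, limma adjusted p = 0.0248). The same probe gave -0.48 (adjusted p = 0.222) in monocytes and -0.35 (adjusted p = 0.253) in macrophages. The cDC1 call for Tet2 was lost without WT cDC1 replicate 23 (-1.23, adjusted p = 0.0530), without WT cDC1 replicate 26 (-0.81, adjusted p = 0.132), without Mbd2-/- cDC1 replicate 27 (-0.76, adjusted p = 0.0681) and without Mbd2-/- cDC1 replicate 30 (adjusted p = 0.0590). It was also lost for Tet2 with array weights (adjusted p = 0.0893) and with cDC1s fitted alone (adjusted p = 0.354).

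Markers of other cells also moved between genotypes. In Mbd2-/- cDC1s the complement gene C1qb rose by 0.92 on the log2 scale (1 of 9 macrophage marker probes passing) and the neutrophil granule gene Ltf by 1.09 (1 of 6). The eosinophil granule gene Prg2 rose by 1.30 (1 of 2) and Cd6 by 1.24 (1 of 11 T cell marker probes). The means of Cd3d, Cd3e, Cd3g and Lck were lower in Mbd2-/- than in WT cDC1s, while those of Cd4 and Tcf7 were higher. Of the cDC1 list, 2 of 14 probes fell, both of Itgae, which encodes the gating marker CD103. The brightest Itgae probe differed little, at 13.15 ± 0.09 (SD, n = 2) in WT and 13.03 ± 0.15 (n = 3) in Mbd2-/- cDC1s. On the log2 scale, macrophage markers averaged 6.84 to 6.87 on WT and 7.04 to 7.78 on Mbd2-/- cDC1 arrays, neutrophil markers 5.58 to 5.72 and 6.06 to 6.59, eosinophil markers 4.41 to 4.62 and 4.71 to 4.89, and monocyte markers 6.61 to 7.00 and 7.02 to 7.29. The genotypes, with 2 WT and 3 Mbd2-/- arrays, did not overlap for these 4 lists. They overlapped for the cDC1, T cell, B and plasma cell, epithelial and stromal lists. In macrophages 2 of 4 monocyte marker probes rose in Mbd2-/- (Ly6c1 by 0.91 and Plac8 by 0.45), with the list's mean at 6.67 to 7.25 in WT and 6.95 to 7.41 in Mbd2-/-, and Mertk (1 of 11 macrophage marker probes) and Prg2 (1 of 1) rose as well, while Zbtb46 (1 of 9 cDC1 marker probes) and Cd79b (1 of 9 B and plasma cell marker probes) fell. In monocytes Mrc1 (1 of 11 macrophage marker probes) and Zbtb46 (1 of 6 cDC1 marker probes) fell. Cd79b (1 of 8 B and plasma cell marker probes) fell there too. The median over the 11 macrophage marker probes was 0.11. Of that list C1qa, C1qb, C1qc and Mertk had higher means in Mbd2-/- than in WT monocytes, and Adgre1, Cx3cr1 and Cd163 lower ones. The part of these cells in the genotype differences of Tet2, Uhrf2, Mtr, Ahcy and the members was not tested.

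Of 7 partners of the methyltransferases (Dnmt3l, Hells, Usp7, Ehmt1, Ehmt2, Setdb1, Trdmt1), 5 genes had a tested probe in each genotype comparison. None of these passed, out of 10 probes tested in monocytes, 11 in macrophages and 10 in cDC1s. Of the methyl donor cycle, which makes S-adenosylmethionine, the substrate of the writers, 1 of 10 probes fell in macrophages. This was Mtr, methionine synthase, at 7.89 ± 0.25 in WT and 7.27 ± 0.27 in Mbd2-/- macrophages (SD, n = 5 each), with a log2 fold change of -0.62 (limma adjusted p = 0.0158). The call was lost without WT macrophage replicate 12 (-0.53, adjusted p = 0.0574), with median scaling (-0.65, adjusted p = 0.221) and with macrophages fitted alone (adjusted p = 0.107). In cDC1s 1 of 11 probes of this list rose, the dimmer Ahcy probe (1.19, adjusted p = 0.0137), while the brighter Ahcy probe differed by 0.01 (adjusted p = 0.966). The Ahcy call was lost without WT cDC1 replicate 23 (0.95, adjusted p = 0.161), Mbd2-/- cDC1 replicate 28 or Mbd2-/- cDC1 replicate 30, with median scaling (0.59, adjusted p = 0.138), with array weights (adjusted p = 0.0744) and with cDC1s fitted alone (adjusted p = 0.354).

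Between cell types, by contrast, several members passed the test. With both genotypes averaged at equal weight, 3 of 10 member probes passed for macrophages against monocytes, all higher in macrophages, with 34.2% of all probes passing. Of 11 member probes, 6 passed for cDC1s against monocytes (5 higher and 1 lower, 43.3% of all probes) and 6 for cDC1s against macrophages (4 higher and 2 lower, 42.4%). These shares lie near those of all probes, and nothing about the members as a set is read from them. The 3 comparisons share arrays, and each is therefore given by its own values.

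**Figure D3:**
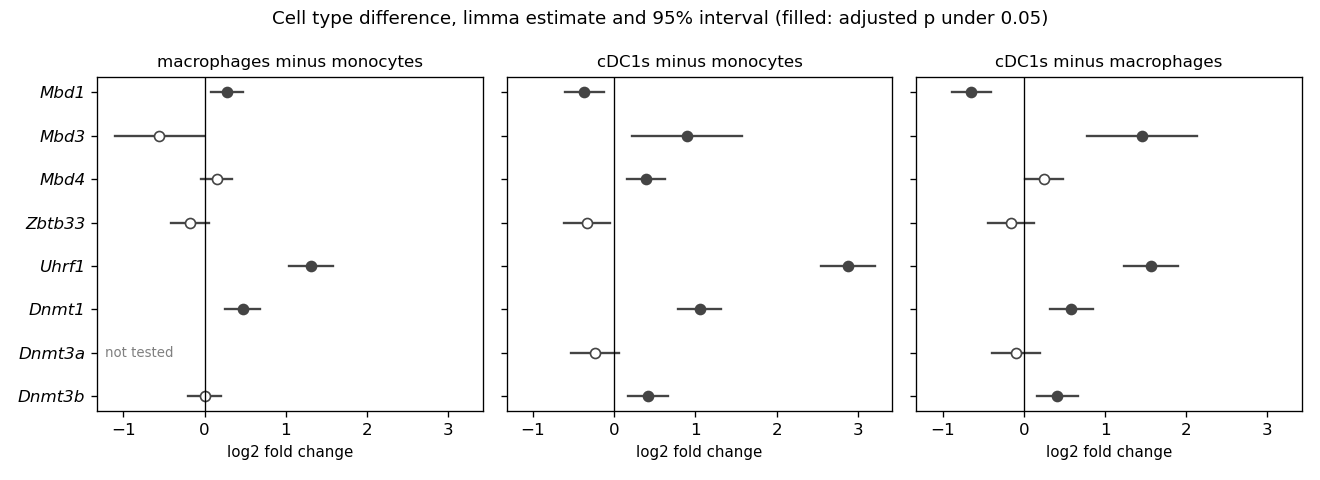
Log2 fold change between cell types, both genotypes averaged, for the main probe of each gene, with its 95% interval from limma; filled points passed the test at an adjusted p under 0.05. Uhrf1 and Dnmt1 were higher in macrophages than in monocytes and higher again in cDC1s, Mbd3 was higher in cDC1s, and Mbd1 was lower in cDC1s.

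Uhrf1 showed the widest separation among the members. Monocytes ranged from 7.01 through a median of 7.26 to 7.91 in WT and from 6.95 through 7.45 to 8.01 in Mbd2-/-, and macrophages from 8.42 through 8.76 to 9.01 in WT and from 8.39 through 8.58 to 8.80 in Mbd2-/-. The cDC1s were at 9.81 and 10.34 in WT and 10.31, 10.38 and 10.56 in Mbd2-/-. No array of one cell type overlapped another. The log2 fold change was 1.31 (SE 0.129, limma adjusted p = 2.92e-08) for macrophages against monocytes, 2.88 (SE 0.160, adjusted p = 4.14e-13) for cDC1s against monocytes and 1.57 (SE 0.159, adjusted p = 2.00e-08) for cDC1s against macrophages. These 3 calls held in every alternative processing that was run and without any single array.

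Dnmt1, the enzyme that Uhrf1 recruits, followed the same order at smaller steps, with group means of 7.49 and 7.22 in WT and Mbd2-/- monocytes, 7.92 and 7.73 in macrophages, and 8.28 and 8.55 in cDC1s. It was higher in macrophages than in monocytes by 0.47 (SE 0.104, limma adjusted p = 0.00111) and higher in cDC1s than in monocytes by 1.05 (SE 0.128, adjusted p = 3.02e-07). The cDC1s and monocytes did not overlap, though with median scaling Dnmt1 in cDC1s exceeded monocytes by 0.57 without passing (adjusted p = 0.0522). The step from macrophages to cDC1s was 0.59 (SE 0.128, adjusted p = 0.000591), but with median scaling it was 0.06 (adjusted p = 0.869), in a comparison where the median of all probes was then -0.14.

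Both genes are transcribed with the replication programme in dividing cells, and 16 genes of S phase and mitosis (such as Pcna, Mcm2, Mki67 and Top2a) were read beside them. Of these, 13 of 15 genes tested were higher in macrophages than in monocytes (21 of 24 probes, median log2 difference 0.94), 16 of 16 were higher in cDC1s than in monocytes (27 of 30 probes, median 2.17) and 15 of 16 were higher in cDC1s than in macrophages (25 of 29 probes, median 1.27). The mean level of the list was 6.12 to 6.60 over all monocyte arrays, 6.94 to 7.26 over macrophages and 8.12 to 8.75 over cDC1s, so the cell types did not overlap. Between genotypes 0 of 23 probes of the list passed in monocytes, 2 of 24 rose in Mbd2-/- macrophages (Cdk1, 0.89, limma adjusted p = 0.0172, and Top2a, 0.73, adjusted p = 0.0455) and 1 of 28 rose in Mbd2-/- cDC1s (Rrm2, 1.45, adjusted p = 0.0103). The median log2 fold change over the list's probes was 0.07, -0.03 and 0.005 in monocytes, macrophages and cDC1s. The same probes of Cdk1 and Top2a had lower means in Mbd2-/- than in WT cDC1s (8.25 against 8.52 and 8.38 against 9.22). The Rrm2 probe was lower in Mbd2-/- than in WT macrophages (5.02 against 5.62). In monocytes all of these probes had higher means in Mbd2-/-. The call for Cdk1 was lost without WT macrophage replicate 12 (0.67, adjusted p = 0.0543) or Mbd2-/- macrophage replicate 20 (0.70, adjusted p = 0.0582), that for Rrm2 without WT cDC1 replicate 23 (0.64, adjusted p = 0.272), and that for Top2a without any of many single arrays, with the highest adjusted p (0.152) without WT macrophage replicate 12. With each cell type fitted alone none of Cdk1, Rrm2 and Top2a passed (adjusted p = 0.137, 0.354 and 0.158), with median scaling neither Rrm2 (0.73, adjusted p = 0.165) nor Top2a (adjusted p = 0.181), with cyclic loess Rrm2 did not (adjusted p = 0.0546), and Top2a did not with array weights (adjusted p = 0.0878) or without the detection filter (adjusted p = 0.112).

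As a description over arrays, which share a cell type and one normalization, Uhrf1 correlated with the mean of the S phase list at r = 0.85 over the 10 monocyte arrays and r = 0.52 over the 10 macrophage arrays. Dnmt1 correlated with it at -0.06 and -0.62 in the same arrays. Over all 25 arrays, after each group's mean was subtracted, r was 0.76 for Uhrf1 and 0.35 for Dnmt1. Uhrf1 thus moved with the mean of the list within as well as between cell types, and Dnmt1 moved with that mean mainly between them. A single gene of the list could depart from its mean. Dnmt1 correlated with Mcm7, the gene most like it, at r = 0.83 after group means were subtracted.

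**Figure D4:**
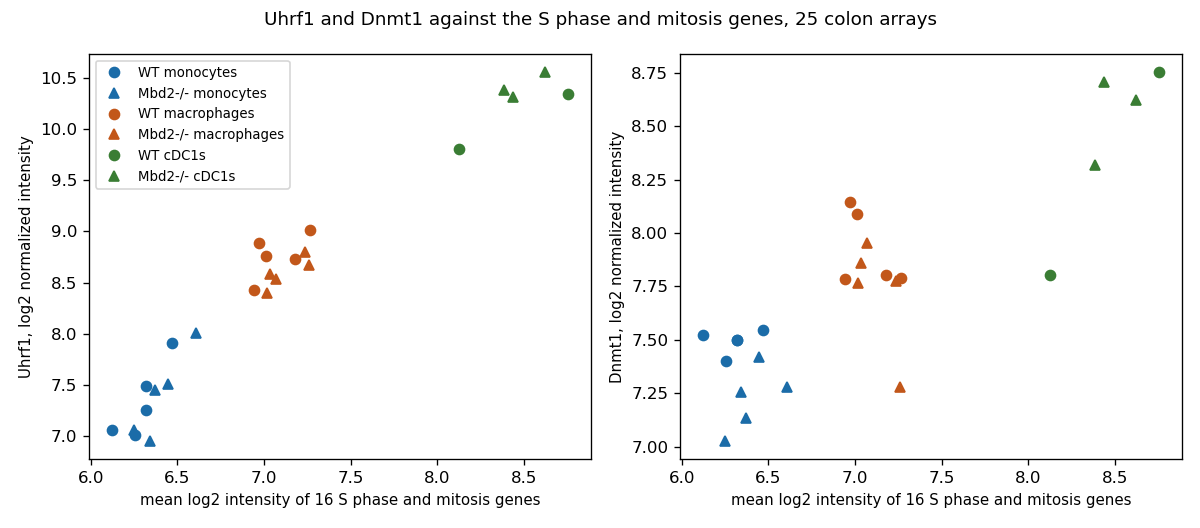
Uhrf1 and Dnmt1 (log2 normalized intensity, vertical axes) against the mean log2 level of the S phase and mitosis genes on the 25 colon arrays; each point is an array, coloured by cell type with a symbol for genotype. The 3 cell types form separate clusters, and within monocytes the Uhrf1 points still rise with the S phase mean.

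T cell transcripts moved in the same direction. For cDC1s against monocytes 10 of 11 T cell marker probes were higher (median log2 difference 1.79) and for cDC1s against macrophages 10 of 12 (median 1.04). The mean level of the T cell markers was 5.21 to 6.26 in monocytes, 5.77 to 6.54 in macrophages and 6.55 to 8.13 in cDC1s, and the Dnmt1 level on both splenic T cell arrays (9.80 and 9.50) exceeded that of every colon array. Over all 25 arrays the mean of the T cell markers correlated with Uhrf1 at r = 0.81 and with Dnmt1 at r = 0.69. After group means were subtracted the values were 0.03 and -0.25. Over the 10 monocyte arrays they were 0.41 and 0.24, and over the 10 macrophage arrays 0.47 and 0.19. WT cDC1 replicate 26, with the lower T cell marker mean of the WT pair (6.61), had the higher S phase mean (8.75) and the higher Uhrf1 and Dnmt1. Among Mbd2-/- cDC1s, replicate 28 had the highest T cell marker mean (8.13), the highest Dnmt1 (8.70) and the lowest Uhrf1 (10.31). The part of T cell RNA in the cell type differences was not tested.

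The promoters of Uhrf1 and Dnmt1 were searched because both genes moved with S phase genes across the cell types. The letters sought were the E2F-like words TTTCCCGC, TTTGGCGC, TTTCGCGC and TTTGCCGC, which were read on both strands, where matches may overlap, from 250 bases before to 50 bases after each RefSeq start (GRCm38.p6). Of 32851 such windows 2.3% held at least 1 of them. Windows were found for 7 of the 9 members, 12 windows in all, and 2 of these held a match, 1 of Uhrf1 and 1 of Dnmt1. Of 14 S phase and mitosis genes in the table, 5 did (Mcm3, Mcm5, Mcm6, Mcm7 and Cdk1), beside 2.6% of all 27025 genes. Every word sought holds a CpG, and the matching windows of Uhrf1 and Dnmt1 each held 33 CpGs, beside a median of 7 over all windows. The share of CpG-rich windows with a match was not counted. The matches are printed with 30 bases each, 5′ to 3′ on the gene's own strand, with the matching letters in capitals. They lie on the plus strand at chr17:56304117-56304146 for Uhrf1 and on the minus strand at chr9:20952824-20952853 (a reverse-complement match) and chr9:20952574-20952603 for Dnmt1.
Uhrf1: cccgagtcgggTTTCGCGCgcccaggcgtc
Dnmt1 before the start: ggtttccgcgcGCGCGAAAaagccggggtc
Dnmt1 after the start: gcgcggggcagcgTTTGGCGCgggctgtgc
The Uhrf1 match begins 185 bases before the start, and the Dnmt1 matches 219 bases before and 34 bases after it. A match describes the letters of the window and is not a measured binding site.

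CpG is the dinucleotide on which these proteins act, and it was counted in the promoter windows of the members. The windows held 22 CpGs for Mbd3, 25 for Mbd4, 30 for Dnmt3b and 34 for Zbtb33, and from 2 to 33 across those of Dnmt1, 18 to 47 across those of Dnmt3a and 12 to 33 across those of Uhrf1. Over all windows the median was 7 and the quartiles were 3 and 20.

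Mbd3, the NuRD subunit, was higher in cDC1s than in the other cells. The cDC1 arrays lay between 7.08 and 7.65, beside 5.79 to 7.13 in monocytes and 4.66 to 7.35 in macrophages. The log2 difference was 0.90 (SE 0.328, limma adjusted p = 0.0300) against monocytes and 1.46 (SE 0.329, adjusted p = 0.000857) against macrophages. The call against monocytes was lost without either WT cDC1 replicate 23, WT cDC1 replicate 26 or Mbd2-/- cDC1 replicate 27, and with median scaling (0.49, adjusted p = 0.284). Macrophages were lower than monocytes by 0.56 without passing (adjusted p = 0.111), and this passed without Mbd2-/- macrophage replicate 20 (-0.71, adjusted p = 0.0286).

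Mbd1 ran the other way. It was lower in cDC1s than in monocytes by -0.37 (SE 0.116, limma adjusted p = 0.0124) and than in macrophages by -0.65 (SE 0.115, adjusted p = 6.89e-05) as log2 differences, and its second probe differed by -0.59 against macrophages (adjusted p = 0.00959). The call of Mbd1 against monocytes was lost without WT cDC1 replicate 23 (-0.26, adjusted p = 0.146), with WT arrays alone (adjusted p = 0.0576) and with Mbd2-/- arrays alone (adjusted p = 0.120). By the main probe macrophages exceeded monocytes by 0.28 (SE 0.0944, adjusted p = 0.0248), a call lost without WT monocyte replicate 1, Mbd2-/- monocyte replicate 7 or Mbd2-/- macrophage replicate 18, and with median scaling (0.30, adjusted p = 0.266). The second probe differed by 0.31 (adjusted p = 0.101) and the third by 0.03 (adjusted p = 0.889) without passing.

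Mbd3 varied more within groups than the other members. Its pooled within-group SD was 0.638, at the 96.5th percentile of the 24801 probes tested in any comparison, whose median SD was 0.225, while the other members had SDs of 0.201 to 0.299. On arrays where Mbd3 was high Mbd1 was low, with r = -0.54 over the 25 arrays after group means were subtracted. In macrophages the mean intensity of the array correlated with Mbd3 at r = -0.63 and with Mbd1 at r = 0.69 (10 arrays). In monocytes the values were -0.24 and -0.06 (10 arrays), and over all 25 arrays after group means were subtracted they were -0.34 and 0.24. The part of array intensity in the spread of either gene was not tested.

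**Figure D5:**
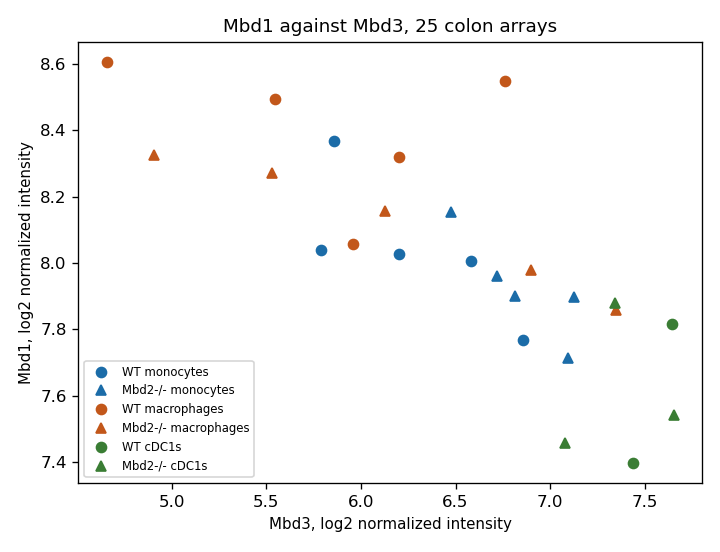
Mbd1 against Mbd3 (log2 normalized intensity of the main probe of each) on the 25 colon arrays; each point is an array, coloured by cell type with a symbol for genotype. Mbd3 spans 4.66 to 7.65 and Mbd1 7.40 to 8.60, with the macrophages spread over the upper left and the cDC1s at the lower right.

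Of the remaining members, Mbd4 was higher in cDC1s than in monocytes by 0.40 (SE 0.113, limma adjusted p = 0.00604), a call lost without WT cDC1 replicate 26, and did not pass against macrophages (0.25, adjusted p = 0.0832), except without WT cDC1 replicate 23 (0.40, adjusted p = 0.0113) or WT macrophage replicate 11 (0.29, adjusted p = 0.0383). Dnmt3b was higher in cDC1s than in monocytes by 0.42 (SE 0.121, adjusted p = 0.00683) and than in macrophages by 0.41 (adjusted p = 0.00727), but without WT cDC1 replicate 26 neither passed (adjusted p = 0.0872 and 0.0898), and with median scaling the differences of Dnmt3b were 0.07 from monocytes and -0.02 from macrophages. Zbtb33 was lower in cDC1s than in monocytes by -0.33 on the log2 scale without passing (adjusted p = 0.0536). The second tested Zbtb33 probe differed by -0.06 there (adjusted p = 0.730). The difference by the main Zbtb33 probe did pass with median scaling (-0.80, adjusted p = 0.00801), cyclic loess (adjusted p = 0.0415), the stricter detection filter (adjusted p = 0.0411) and Mbd2-/- arrays alone (adjusted p = 0.0356). It also passed without WT monocyte replicate 1 (-0.39, adjusted p = 0.0175) or 5, Mbd2-/- monocyte replicate 6 or 9, WT macrophage replicate 11, or Mbd2-/- cDC1 replicate 30.

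Of the 5 further genes, not all of which had a tested probe between cell types, no probe passed the test as higher in cDC1s. Against monocytes 2 of 7 probes were lower: Mbd6 fell by 0.83 on the log2 scale (limma adjusted p = 0.00387) and Mbd5 by 0.55 (adjusted p = 0.00561). Against macrophages 3 of 6 were lower: Mbd6 fell by 0.61 (adjusted p = 0.0312), Mbd5 by 0.54 (adjusted p = 0.00667) and Uhrf2 by 0.46 (adjusted p = 0.00158). Uhrf2 was higher in macrophages than in monocytes by 0.39 (adjusted p = 0.00160), the only 1 of 6 probes to pass there. These Uhrf2 values are not those of its dimmer probe, whose direction depended on genotype. The mean of the dimmer probe was higher in cDC1s than in macrophages in WT and lower in Mbd2-/-. Its mean in macrophages was below that in monocytes in WT and above it in Mbd2-/-. Tet2 was highest in monocytes: macrophages were lower by -0.60 (adjusted p = 0.000868) and cDC1s by -1.36 (adjusted p = 1.84e-07) as log2 differences, and its second probe was lower in both as well (-0.81 and -1.13). Tdg was higher in cDC1s than in macrophages by 0.95 (adjusted p = 0.0171).

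In the splenic CD4 T cells, all 27 arrays were normalized together and 1 array a genotype allows no test. All 7 T cell markers were detected on both arrays, each above every colon array, and 3 of 9 cDC1 markers were detected. RNA of other cells was present too: 8 of 8 macrophage markers were detected on both, and 7 of 7 neutrophil markers on the WT and 6 of 7 on the Mbd2-/- array, 2 of them above every colon array on both. These 2 granule genes were higher on the WT array, Ltf at 11.81 against 9.05 and Camp at 11.05 against 8.53, and the macrophage gene C1qa was higher on the Mbd2-/- array (8.49 against 6.35). Their part in the differences between the T cell arrays was not tested. Uhrf1 was at 10.75 in WT and 10.31 in Mbd2-/- T cells, with the colon arrays at 6.94 to 10.52 on this scale. Dnmt1 was at 9.80 and 9.50, both above the highest colon array (8.73), and Mbd3 at 8.05 and 8.74, both above its highest colon array (7.64). Of the S phase and mitosis genes 16 of 16 were detected on both arrays and 9 of 16 exceeded every colon array on both.

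The readers Mbd1 and Zbtb33 were within the colon range or just under it. Mbd1 was at 7.64 in WT and 7.07 in Mbd2-/- T cells, against 7.38 to 8.58 in the colon, and Zbtb33 was at 8.03 and 7.52. Dnmt3b was at 6.55 and 6.50 and Mbd4 at 5.08 and 4.80. Mbd2 (4.24 and 4.45) and Dnmt3a were not detected in either. The widest differences between the T cell arrays among the main probes were 0.69 for Mbd3, -0.57 for Mbd1, -0.51 for Zbtb33 and -0.44 for Uhrf1. None of the 13 member probes detected on a T cell array differed by 1 log2 unit or more, beside 3.83% of 19937 probes that did, and their median difference was -0.04, beside -0.02 over all.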

How the data were processed

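RNA of sorted cells was measured on 27 Illumina MouseWG-6 BeadChip arrays. The authors deposited a table of probe intensity, bead standard errors, bead counts and detection p-values, with its background correction and normalization not given in the sources used here (the submitters' processing notes name lumi and limma). Here normexp removed the background using 936 negative control probes (offset 16), followed by quantile normalization of the 25 colon arrays and log2. In R 4.3.3, limma 3.58.1 fitted 6 groups in 1 model with 9 comparisons. A probe was tested if enough arrays of the compared groups, namely the number in the smallest group, had a detection p-value under 0.05. A further 3 signal columns matched no sample here and were not used. The text names every member, list genes past the adjusted p with up to 4 others a list, and for each member the 3 genes with the highest r over the colon arrays. The brightest tested probe of a gene is its main probe. Members and gene lists were chosen with earlier results of these data known. The procedure was tested on simulated data. Alternatives covered background, offset, scaling, filters, array weights, separate fits, single genotypes and leaving out each array; a block for column position and genes in place of probes were added after seeing the data. Promoter sequences came from RefSeq (GRCm38.p6). Part of a gene list is not reported here.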

Additional observations from a re-analysis of the deposited data

Results flagged for a closer look

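Dnmt1 in Mbd2-/- macrophages had 1 array apart from the rest: replicate 20 was at 7.28 and the others lay between 7.77 and 7.95, so that the gap to the nearest array was 0.724 of the group's whole range. Of the 28 sets of arrays looked at in this way (a gene in a group of 4 or more arrays), 1 stood apart, and chance gives about 1 in 20.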

How the results depend on the processing

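No paired analysis was possible because the groups share no replicate numbers in the labels. Single values kept direction and side of the threshold in 602 cases over the alternatives other than leaving out an array, lost the threshold in 44, gained it in 15 and turned sign in 15. With median scaling the median of all probes between genotypes was -0.26, -0.07 and -0.37 in monocytes, macrophages and cDC1s. With quantile normalization it was -0.02, -0.07 and 0.03. Values turned by median scaling are read against that: in cDC1s Dnmt1 -0.36, Dnmt3b -0.20, Mbd1 -0.61 and Uhrf1 -0.15, in monocytes Uhrf1 -0.26, for cDC1s against macrophages Dnmt3b -0.024, and for the interactions Dnmt1 -0.13 and Dnmt3b -0.022 (cDC1s against macrophages) and Dnmt3b 0.20 (macrophages against monocytes). Near zero, Dnmt3b for macrophages against monocytes was -0.0019 with cyclic loess, -0.0029 with array weights, -0.051 with Mbd2-/- arrays alone and -0.0017 with a block for column position, and Mbd1 in cDC1s was -0.053 with cyclic loess and -0.0032 with array weights. At an unadjusted p under 0.05 the member counts were 2 in macrophages, 2 in cDC1s, 5 for macrophages against monocytes, and 2 (against monocytes) and 1 (against macrophages) for the cDC1 interactions (all probes 23.6%, 24.2%, 42.1%, 16.4% and 23.2%), and WT arrays alone gave 3 for cDC1s against macrophages. Leaving out each array gave counts of 0 to 2 for genotype in cDC1s, 2 to 5 for macrophages against monocytes, 3 to 7 for cDC1s against monocytes and 0 to 1 for both cDC1 interactions; WT cDC1 replicate 26 gave the 2, the 3 and the count of 1 for both cDC1 interactions. Without 1 array the value ranged from -0.10 to 0.19 for Uhrf1 in monocytes, -0.20 to 0.75 for Dnmt1 and -0.19 to 0.23 for Mbd1 in cDC1s, -0.039 to 0.053 for Dnmt3b in macrophages against monocytes, and -0.0082 to 0.94 for the Dnmt1 interaction between cDC1s and macrophages. Uhrf1 passed in all 3 cell type comparisons throughout, at 1.01 to 1.42, 2.35 to 3.02 and 1.00 to 1.82. The causes were not tested.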

Other observations

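Genes whose level was most like that of each member over the 25 colon arrays were looked up. For Uhrf1 these were Mcm5 (r = 0.99, 0.83 after group means were subtracted), Kntc1 (0.98) and Mcm6 (0.98), and for Dnmt1 they were Mcm7 (0.95, 0.83 within groups), Ncapd2 (0.95) and Clspn (0.94). Mcm5, Mcm6 and Mcm7 are subunits of the replicative helicase and Clspn a checkpoint protein of the replication fork. Mbd3 was most like Tmed3 (0.97, 0.95 within groups), Rnf167 (0.95) and Trpc4ap (0.95), and Zbtb33 most like Cenpl (0.89, 0.90 within groups), a centromere protein, Ccnt1 (0.81) and Arih1 (0.79). Mbd1 was most like 0610010F05Rik (0.93), Il7r (0.92) and Ncstn (0.91), and Dnmt3b most like E430031D18Rik (0.86), 1110029I05Rik (0.83) and Rps26 (0.83). The arrays share cell types and one normalization, and these values are descriptions chosen as the highest among all probes.

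Genes of the methyl donor cycle also differed between cell types. Mthfd1, a folate enzyme, was higher in macrophages than in monocytes by 0.83 on the log2 scale (limma adjusted p = 2.01e-07) and higher in cDC1s than in monocytes by 1.05. Mat2a, which makes S-adenosylmethionine, was higher in macrophages than in monocytes by 0.53 (adjusted p = 1.25e-06). Ahcy, which clears its product, was higher in cDC1s than in monocytes by 0.63 and than in macrophages by 0.59. Mtr was lower in cDC1s, with log2 differences of -1.15 against monocytes and -1.40 against macrophages. Shmt1, another folate enzyme, was lower in cDC1s than in monocytes (-0.42, adjusted p = 0.0129) and than in macrophages (-0.66).

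Among the partners of the methyltransferases, Dnmt3l, the catalytically inactive cofactor of Dnmt3a and Dnmt3b, was lower in cDC1s than in monocytes by both of its probes (log2 differences of -0.85 and -0.83, limma adjusted p = 0.000275 and 0.000788). Usp7, a deubiquitinase that binds Dnmt1 and Uhrf1, was higher in cDC1s than in macrophages by 2 of its 3 tested probes (0.25 and 0.83, adjusted p = 0.0469 and 0.000851; the other -0.12). The Trdmt1 probes disagreed between cDC1s and monocytes, at -0.37, -0.47 and 0.22.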
